A study of Oryza sativa with 36 samples.

Results

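The genes described here carry names from the jasmonate pathway in rice. The names run from the enzymes that make the hormone to its receptors and the JAZ and other TIFY proteins. Whether each gene acts in the pathway was not tested. A gene was taken if its symbol or alias, with or without the prefix Os, was AOS, AOC, LOX, OPR, JAR, JAZ, TIFY or COI, with any numbers or letters after it. The gene table held 43 such genes. Of these, 39 had a probe set annotated to them alone, out of 17905 genes with such a probe set on the array, and LOX4, TIFY1B, OsOPR3 and a second gene named OPR1 had none. Where a gene had several probe sets, the brightest over the 36 arrays was used, which was a choice to be made for TIFY11B, OsOPR5, LOX9 and TIFY6B. The 39 genes were 6 LOX, 4 AOS, 1 AOC, 7 OPR, 1 JAR, 3 COI and 17 JAZ or TIFY genes. Some aliases are shared between genes. For example, OPR5 is an alias of both OsOPR5 and OsOPR12, and OsJAZ1 of both TIFY3 and TIFY11D.

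Jasmonate is made from fatty acids that lipoxygenases (LOX) oxygenate in the plastid. Allene oxide synthase (AOS) and allene oxide cyclase (AOC) turn the product into oxophytodienoate, and oxophytodienoate reductases (OPR) reduce it in the peroxisome before its side chain is shortened. JAR enzymes join the acid to isoleucine, the active hormone binds a complex of the F-box receptor COI1 with a JAZ repressor, and the repressor is then degraded. JAZ genes are themselves induced by the hormone in many plants, and the pathway is known in rice for wound and pathogen defence, spikelet form and growth restraint.

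RNA was measured on Affymetrix rice arrays in leaf and root of the cultivars 9311, LYP9 and PA64s, with no transgene or mutation named in the labels. From background knowledge, LYP9 is the hybrid of 9311 and PA64s. All seedlings grew for 5 days in a mixed nutrient soil and then stood, 15 of each cultivar, in each of 12 barrels of raw soil low in organic nutrients. When the seedlings were 14 days old, 6 barrels received 10 g urea and 10 g compound fertiliser. These are the nutrient-sufficient groups, which the labels also call heterotic, and seedlings of the barrels without fertiliser are the nutrient-deficient, or non-heterotic, groups. Each of the 12 groups (3 cultivars, 2 tissues, 2 nutrient states) had 3 arrays. The labels do not say whether these came from separate barrels or plants, so every p-value here measures only the spread between these arrays.

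The authors deposited linear intensities, which were taken to log2. Array medians lay between 66.96 and 75.39 units in leaf and between 65.98 and 74.5 in root, and arrays within a group correlated at 0.9753 to 0.9894 in leaf and at 0.9735 to 0.987 in root over all probe sets. The 7 leaf markers averaged 12.57 to 13.26 log2 units in the leaf groups and 5.86 to 6.56 in the root groups. The means of the 7 root markers lay at 8.77 to 9.80 in the root groups and at 6.15 to 6.36 in the leaf groups. All 7 leaf markers were called higher in leaf. Of the 7 root markers, Lsi1, Lsi2, OsPT2, OsPT6 and osysl15 were called higher in root, whereas PT2 was called higher in leaf and OsIRO2 was not called, with group means of 7.08 to 9.15 in leaf and 7.44 to 8.66 in root. A gene is called changed where the Benjamini-Hochberg adjusted p of limma's moderated test over all 57194 probe sets was under 0.05. Since 60% of the probe sets lay above 5.75 in leaf and 5.70 in root, those levels are used here to mark dim genes. Differences of dim genes are given in log2 units and not as folds. A gene was set against the level by its mean over the 18 arrays of a tissue. Some groups or arrays of a dim gene can therefore lie above the level. In leaf 31 of the 39 genes and in root 32 lay above these levels, 28 in both tissues, and AOS3, OsOPR12, TIFY5 and TIFY8 in neither. The number of arrays limits the precision, and in whole organs fewer cells of a type and less RNA per cell cannot be told apart.

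**Figure D1:**
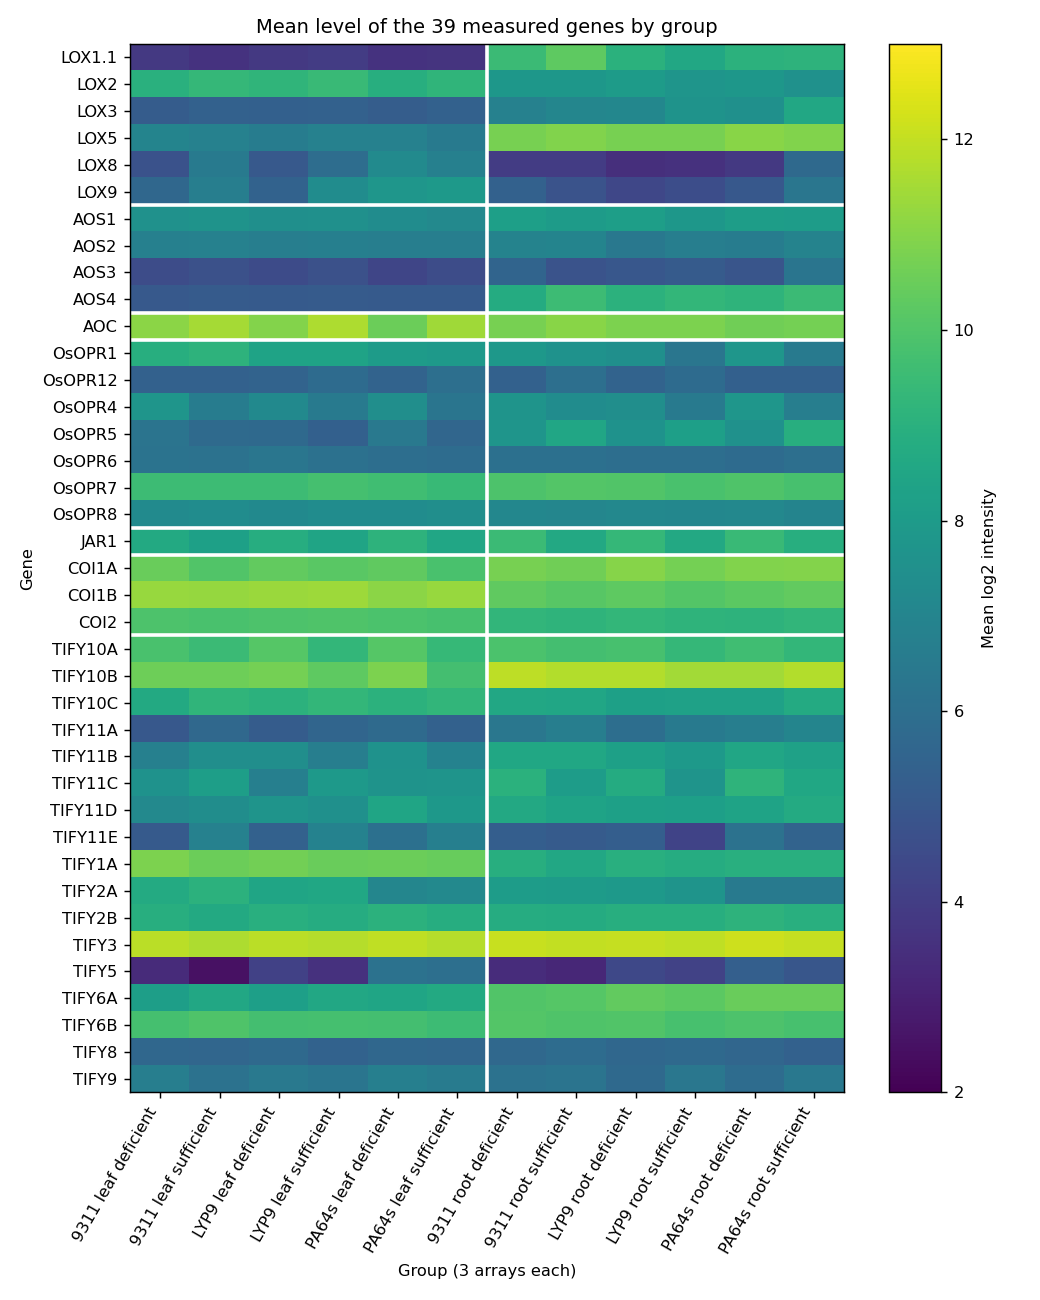
Mean log2 intensity (colour) of each of the 39 genes (rows, ordered by role and separated by white lines) in the 12 groups of 3 arrays (columns, leaf on the left and root on the right of the white line). LOX1.1, LOX5 and AOS4 are lower in all 6 leaf groups than in all 6 root groups, and the colours of TIFY3 hardly vary.

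Of the 39 genes, LOX1.1, LOX5 and AOS4 had the largest differences between leaf and root, each higher in root. Of the 39 genes, 13 were called higher in leaf, beside 42.5% of all probe sets, and 17 were called higher in root, beside 30.7% of all probe sets. In total 30 genes were called, a share close to the 73.3% of all probe sets called. Their median leaf minus root difference was -0.04 log2 units, against 0.08 over all probe sets. Leaf and root arrays did not overlap at all for 10 of the 39 genes, 4 higher in leaf and 6 higher in root, and for 20% of all probe sets.

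The lipoxygenases split by tissue. LOX1.1 ran from 3.59 to 3.93 in the leaf group means and from 8.60 to 10.27 in the root group means, a difference of -5.53 ± 0.18 (SE) log2 units (adjusted p = 7.21e-22). LOX5 (LOC4333823) was 17-fold lower in leaf (-4.09 ± 0.09, adjusted p = 4.89e-26), with leaf group means of 6.53 to 6.95 and root group means of 10.75 to 11.03. LOX3, which carries the alias r9-LOX1 for an enzyme that adds oxygen at another carbon than the jasmonate route uses, was 2.12 ± 0.07 log2 units lower in leaf (adjusted p = 3.61e-21). These 3 genes were high in root on every array, with no leaf array reaching any root array. The other 3 were higher in leaf. LOX2 was 2.6-fold higher there (1.38 ± 0.09, adjusted p = 4.15e-14). LOX8 and LOX9, neighbours in the RefSeq gene order, were 1.96 ± 0.22 (adjusted p = 3.71e-09) and 1.74 ± 0.20 (adjusted p = 5.36e-09) log2 units higher in leaf, with dim levels in root. The LOX9 difference rests on its brightest probe set, since its other probe sets read -0.25 and 0.06.

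Of the 4 allene oxide synthase genes, 3 were higher in root and none higher in leaf. AOS4 had leaf group means of 5.05 to 5.18 and root group means of 8.76 to 9.55, and its difference was -4.09 ± 0.13 log2 units (adjusted p = 1.19e-22). AOS3, the gene next to it on the chromosome, was dim in both organs and 0.71 ± 0.13 log2 units lower in leaf (adjusted p = 1.19e-05). AOS1, the gene that the alias PRECOCIOUS names, was 1.53-fold lower in leaf (-0.62 ± 0.11, adjusted p = 9.62e-06). AOS2 read -0.01 ± 0.07 (adjusted p = 0.913).

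AOC (LOC4333201), the only cyclase gene found and the one whose loss gives the rice mutants cpm2 and hebiba, read 10.53 to 11.65 in the leaf groups and 10.62 to 11.03 in the root groups. Its mean was 1.33-fold higher in leaf (0.41 ± 0.06, adjusted p = 4.13e-07), a call that was lost after quantile normalization, where the difference was -0.03 (adjusted p = 0.603). Leaf and root arrays overlapped.

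Among the reductases, OsOPR5 (LOC4340485) had leaf group means of 5.39 to 6.45 and root group means of 7.57 to 8.91, a difference of -2.20 ± 0.15 (adjusted p = 5.78e-14), and its second probe set gave -2.45. OsOPR1 was 2.29-fold higher in leaf (1.20 ± 0.23, adjusted p = 2.59e-05). OsOPR7, the rice enzyme known to act on the natural jasmonate precursor, was 1.29-fold lower in leaf (-0.37 ± 0.05, adjusted p = 5.94e-07), and OsOPR8 was 1.19-fold higher (0.25 ± 0.05, adjusted p = 2.79e-05). OsOPR4, OsOPR5, OsOPR6 and OsOPR1 lie close together in the gene order, and probes for related copies can bind each other's RNA.

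The amino acid conjugating enzyme JAR1 was 1.35-fold lower in leaf (-0.43 ± 0.10, adjusted p = 0.000374). All 3 receptor genes were called, in opposite directions. COI1B (LOC4338955) was 2.06-fold higher in leaf (1.04 ± 0.07, adjusted p = 4.17e-14) and COI2 1.62-fold higher (0.70 ± 0.06, adjusted p = 3.98e-12), with no overlap of leaf and root arrays for either. COI1A was 1.53-fold lower in leaf (-0.62 ± 0.08, adjusted p = 2.86e-08).

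Of the 17 JAZ and TIFY genes, 5 were higher in leaf, 7 were higher in root and 5 were not called. TIFY6B was not called by its brightest probe set (-0.17, adjusted p = 0.147), whereas its second probe set gave -0.55 (adjusted p = 3.1e-05). TIFY1A, a family member with no JAZ name, was 3.29-fold higher in leaf (1.72 ± 0.06, adjusted p = 6.55e-22). TIFY2A, TIFY10C and TIFY9 were higher in leaf by 0.72, 0.65 and 0.35 log2 units (adjusted p = 8.27e-11, 0.00174 and 0.0153). TIFY6A was 3.54-fold lower in leaf (-1.83 ± 0.06, adjusted p = 1.32e-22) and TIFY10B 2.34-fold lower (-1.22 ± 0.10, adjusted p = 9.57e-12). TIFY1A and TIFY6A separated leaf from root on every array, whereas leaf and root arrays of TIFY10B overlapped. TIFY3 (LOC4337240), the gene also called JAZ1 and EG2 and known for its part in spikelet development, varied little, with group means from 11.65 to 12.17, and was 1.18-fold lower in leaf (-0.24 ± 0.05, adjusted p = 3.86e-05). Within the TIFY11 genes, TIFY11A, TIFY11B, TIFY11C and TIFY11D were lower in leaf by -1.07, -1.20, -0.92 and -0.74 log2 units, and TIFY11E was higher by 0.91. The second probe set of TIFY11B gave a smaller difference, -0.55 (adjusted p = 0.000166).

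The nutrient comparison asks which of these genes differed between fertilised and unfertilised seedlings of a cultivar. In leaf, AOC was higher with fertiliser in all 3 cultivars, and OsOPR4 was lower in 9311 and PA64s. In 9311 leaf 2 of the 39 genes were called (background 7.29% of probe sets), in LYP9 leaf 2 (5.25%) and in PA64s leaf 3 (4.66%), so the share of called genes was near the background in each. The median difference of the 39 genes was 0.07, 0.04 and -0.10 log2 units, against 0.03, 0.04 and 0.04 over all probe sets. None of the AOS, JAR, COI, JAZ or TIFY genes was called in leaf in the main limma fit (group means per tissue). There COI1A, TIFY11E, TIFY3, TIFY6A, TIFY8, TIFY10A and TIFY10B had an unadjusted p under 0.05 in 1 or more cultivars. With replicate numbers as a block, TIFY11E and TIFY6A were called in 9311 leaf, OsOPR4 in LYP9 leaf, and JAR1 and TIFY10B in PA64s leaf. The fit of all 36 arrays added TIFY6A and LOX8 in 9311 leaf, TIFY10A in LYP9 leaf, and TIFY10B and OsOPR12 in PA64s leaf. It lost OsOPR5 in PA64s leaf.

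Some markers of leaf and root tissue also changed with fertiliser. In leaf the median difference of the 7 leaf markers was 0.35 log2 units in 9311, 0.20 in LYP9 and 0.45 in PA64s, with LHCP and PSAH called higher in 9311, none in LYP9, and CAB2R, LHCP and PSAH called higher in PA64s. Among the root markers, the silicon transporter gene Lsi1 was called higher in leaf of 9311 and PA64s, and OsIRO2, a regulator of iron uptake, lower in leaf of all 3 cultivars. In root the median difference of the 7 root markers was 0.57 in 9311, 0.40 in LYP9 and 0.63 in PA64s, with osysl15 called higher in all 3 and OsIRO2 higher in 9311. The part of these shifts in the differences of the jasmonate genes was not tested.

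**Figure D2:**
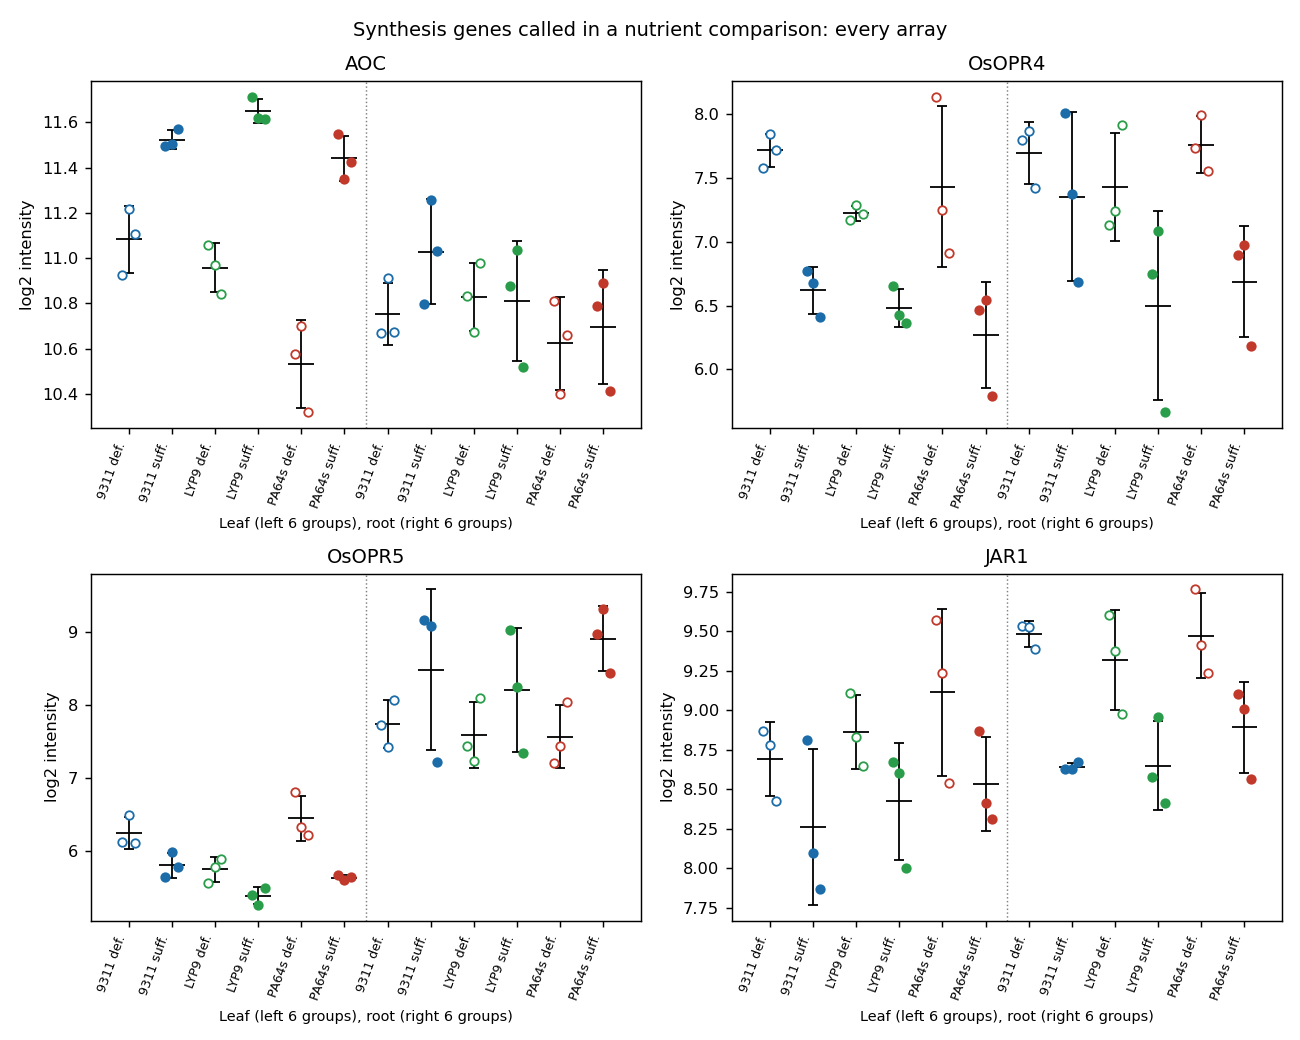
Log2 intensity (vertical axis) of AOC, OsOPR4, OsOPR5 and JAR1 on every array (points) in the 12 groups, with the mean and SD of each group (bars, n = 3). Open points are nutrient-deficient and filled points nutrient-sufficient arrays. AOC is higher in the sufficient leaf arrays of each cultivar, and OsOPR5 lies lower in leaf than in root.

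AOC read 10.92, 11.22 and 11.11 in deficient 9311 leaf and 11.50, 11.51 and 11.57 in sufficient 9311 leaf. In LYP9 leaf it read 11.06, 10.97 and 10.84 without and 11.71, 11.62 and 11.62 with fertiliser. In PA64s leaf it read 10.57, 10.70 and 10.32 without and 11.55, 11.35 and 11.42 with fertiliser. The sufficient arrays lay above the deficient arrays in each cultivar, without overlap. AOC rose 1.36-fold in 9311 (0.44 ± 0.12, adjusted p = 0.0333), 1.62-fold in LYP9 (0.69 ± 0.12, adjusted p = 0.00351) and 1.88-fold in PA64s (0.91 ± 0.12, adjusted p = 0.000507). The parents' responses differed by -0.47 ± 0.17 log2 units (9311 minus PA64s), which did not pass the test (adjusted p = 1). The 9311 call was lost on leaving out any 1 array but deficient replicate 2, with values of 0.36 to 0.51 and an adjusted p of up to 0.164, and under quantile normalization (0.30), median centring (0.37) and a trended and robust variance prior (adjusted p = 0.0503). The LYP9 and PA64s calls were kept without each array in turn.

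OsOPR4 (LOC4340486), a reductase of the subgroup not known to act in jasmonate synthesis, moved the other way. It read 7.58, 7.85 and 7.72 in deficient 9311 leaf and 6.77, 6.68 and 6.41 in sufficient 9311 leaf, and fell 2.14-fold (-1.10 ± 0.25, adjusted p = 0.0128). In PA64s leaf it read 8.14, 7.25 and 6.91 without and 6.47, 6.55 and 5.79 with fertiliser, and fell 2.24-fold (-1.17 ± 0.25, adjusted p = 0.0123). In LYP9 leaf it read 7.17, 7.29 and 7.22 without and 6.65, 6.43 and 6.37 with fertiliser, a difference of -0.74 ± 0.25 that did not pass the test (adjusted p = 0.0938). Deficient arrays were the higher ones in each cultivar and did not overlap the sufficient arrays. Without PA64s leaf sufficient replicate 3 the PA64s difference was -0.81 and was no longer called (adjusted p = 0.0714).

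OsOPR5 fell in PA64s leaf, from 6.81, 6.33 and 6.23 to 5.67, 5.60 and 5.65 (-0.81 ± 0.16, adjusted p = 0.00714). Its second probe set gave -0.83 (adjusted p = 0.0296). In 9311 leaf it differed by -0.44 (adjusted p = 0.106) and in LYP9 leaf by -0.36 (adjusted p = 0.199). The PA64s leaf call was lost where all 36 arrays shared a fit (adjusted p = 0.188).

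LOX9 (LOC4345994) read 5.36, 5.46 and 5.56 in deficient LYP9 leaf and 7.25, 7.18 and 7.58 in sufficient LYP9 leaf. It rose by 1.88 ± 0.48 log2 units from a dim level (adjusted p = 0.0331). The call was lost without any 1 array but LYP9 leaf sufficient replicate 2 (1.76 to 1.96, adjusted p up to 0.0971), and the mean of its 3 probe sets differed by 0.97 (adjusted p = 0.107). In 9311 leaf LOX9 differed by 1.05 (adjusted p = 0.21) and in PA64s leaf by 0.18 (adjusted p = 0.874).

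The genes named for each other role by their brightest probe set did not pass the test in leaf. LOX5 differed by -0.10, 0.21 and -0.29 log2 units in 9311, LYP9 and PA64s leaf, AOS1 by 0.09, 0.04 and -0.16, and OsOPR7 by -0.01, 0.22 and -0.23. JAR1 differed by -0.43, -0.44 and -0.58, COI1B by -0.01, 0.04 and 0.21, and TIFY3 by -0.21, -0.09 and -0.16. The lowest adjusted p among these 18 differences was 0.193, that of TIFY3 in 9311.

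Among the repressor genes, TIFY10B and TIFY10A are given here although no call of the main fit names them, and were picked after their values were seen. TIFY10B read 11.37, 10.72 and 10.44 in deficient and 9.63, 9.47 and 9.99 in sufficient PA64s leaf, without overlap, and its difference of -1.14 ± 0.32 missed the threshold (adjusted p = 0.0509). This difference was called where all 36 arrays shared a fit (adjusted p = 0.0052) and with replicate numbers as a block (adjusted p = 0.0299). In LYP9 leaf TIFY10B differed by -0.43 (adjusted p = 0.478) and in 9311 leaf by 0.02 (adjusted p = 0.982). TIFY10A differed by -0.80 (adjusted p = 0.0883) in LYP9, -0.77 (adjusted p = 0.103) in PA64s and -0.34 (adjusted p = 0.48) in 9311 leaf. Its LYP9 difference was called where all 36 arrays shared a fit (adjusted p = 0.0405). The 17 JAZ and TIFY genes ranged from -0.85 to 1.75 log2 units in 9311 leaf, from -0.80 to 1.45 in LYP9 leaf and from -1.14 to 0.70 in PA64s leaf, with TIFY11E at the upper end in each. The 4 AOS genes stayed within a narrower range in leaf, from -0.16 to 0.26 over the 3 cultivars.

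In root, none of the genes called in leaf passed the test. In 9311 root JAR1 fell and OsOPR12 rose, 2 of the 39 genes (background 2.79%). In PA64s root LOX3 and LOX8 rose, again 2 genes (1.85%). No gene was called in LYP9 root (1.67%), where 6 genes had an unadjusted p under 0.05 in limma's test, JAR1, LOX3, OsOPR1, OsOPR4, OsOPR12 and TIFY10A. JAR1 was called there with replicate numbers as a block (adjusted p = 0.0327). The fit of all 36 arrays added AOS3 (adjusted p = 0.0109) and OsOPR5 in PA64s root. That fit lost LOX8 in PA64s root and JAR1 in 9311 root. The median difference of the 39 genes was -0.04 in 9311, -0.11 in LYP9 and -0.01 in PA64s root, against 0.04, 0.00 and -0.02 over all probe sets.

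JAR1 (LOC4339756) read 9.53, 9.53 and 9.38 in deficient 9311 root and 8.62, 8.63 and 8.67 in sufficient 9311 root, and fell 1.79-fold (-0.84 ± 0.19, adjusted p = 0.0264). In LYP9 root it read 9.60, 9.37 and 8.98 without and 8.58, 8.96 and 8.41 with fertiliser (-0.67 ± 0.19, adjusted p = 0.0871). In PA64s root it read 9.76, 9.41 and 9.24 without and 9.10, 9.01 and 8.56 with fertiliser (-0.58 ± 0.19, adjusted p = 0.152). Sufficient arrays were the lower ones in all 3 cultivars, and no deficient array of a cultivar lay below a sufficient one. The 9311 call was lost without any 1 array but sufficient replicate 3 (-0.89 to -0.81, adjusted p up to 0.123) and where all 36 arrays shared a fit (adjusted p = 0.0534).

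LOX3 (LOC4333818) read 7.47, 7.68 and 7.47 in deficient PA64s root and 8.40, 8.70 and 8.69 in sufficient PA64s root, and rose 2.07-fold (1.05 ± 0.22, adjusted p = 0.022). The PA64s sufficient arrays lay above all other root arrays. In LYP9 root LOX3 differed by 0.55 (adjusted p = 0.292) and in 9311 root by 0.21 (adjusted p = 0.659). The PA64s call was lost without any 1 array but sufficient replicate 1 (1.00 to 1.15, adjusted p up to 0.102).

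LOX8 (LOC4345993) was dim in root, at 3.27, 3.97 and 4.30 in deficient PA64s and at 4.92, 6.35 and 6.01 in sufficient PA64s, and rose by 1.92 ± 0.32 log2 units (adjusted p = 0.00433; 0.0556 where all 36 arrays shared a fit). In 9311 and LYP9 root it differed by -0.01 and 0.06. OsOPR12 (LOC107279821) was dim as well by its mean over all root arrays. It read 5.28, 5.42 and 5.59 in deficient 9311 root and 5.91, 6.13 and 5.98, above the level, in sufficient 9311 root. It rose by 0.58 ± 0.12 log2 units (adjusted p = 0.0163). Its call was lost without sufficient replicate 2, deficient replicate 1 or deficient replicate 2 of 9311 root (0.50 to 0.65, adjusted p up to 0.105).

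AOC in root differed by 0.28 (adjusted p = 0.396) in 9311, -0.02 (adjusted p = 0.981) in LYP9 and 0.07 (adjusted p = 0.922) in PA64s. OsOPR5 in root spread widely, for example over 9.16, 9.08 and 7.22 in sufficient 9311 against 7.73, 7.42 and 8.07 in deficient 9311. Its differences of 0.75 in 9311 (adjusted p = 0.415), 0.62 in LYP9 (adjusted p = 0.665) and 1.34 in PA64s (adjusted p = 0.204) did not pass the test. The PA64s difference was called where all 36 arrays shared a fit (adjusted p = 0.0489). OsOPR4 differed by -0.34, -0.93 and -1.07 in 9311, LYP9 and PA64s root, with no adjusted p under 0.172.

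**Figure D3:**
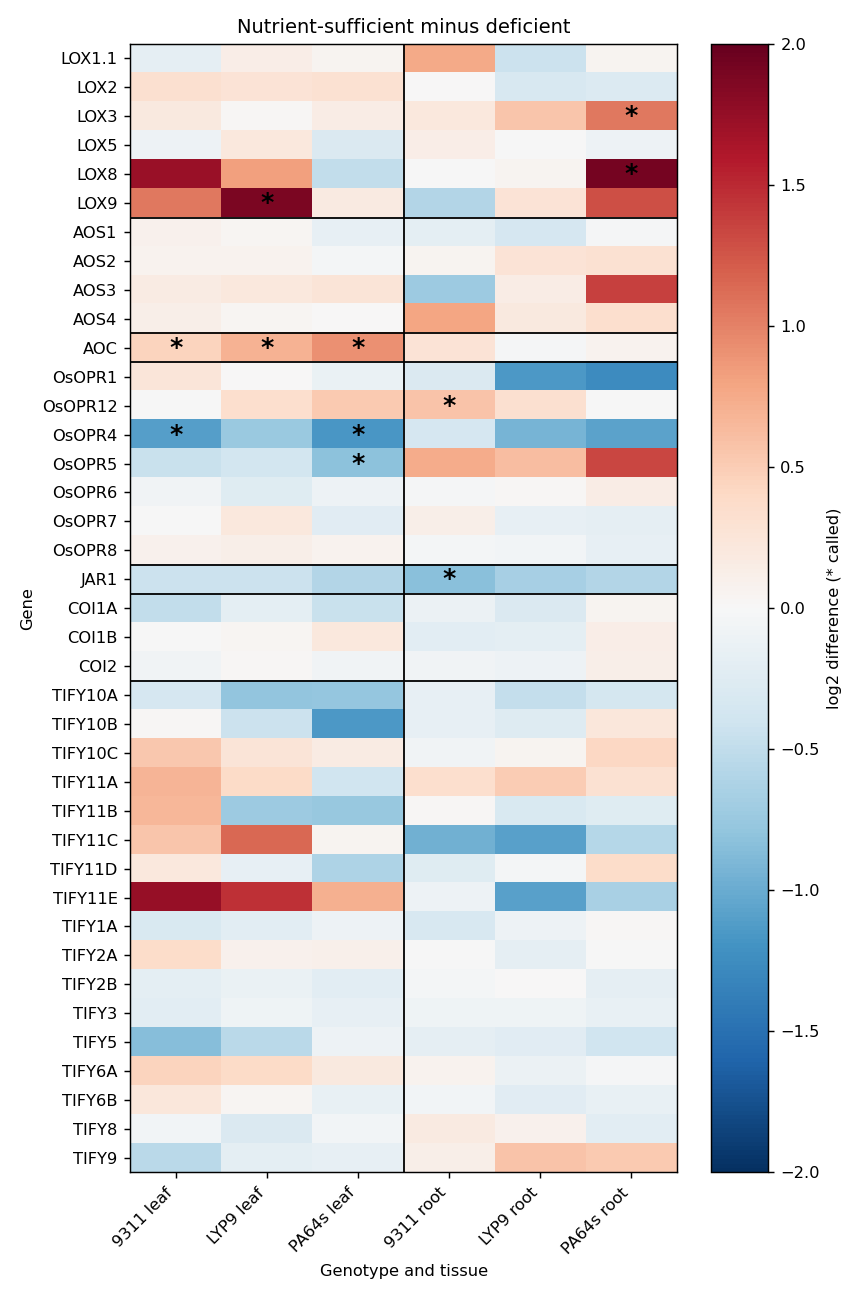
Nutrient-sufficient minus nutrient-deficient difference in log2 units (colour) of the 39 genes (rows) in leaf and root of the 3 cultivars (columns), with a star at an adjusted p under 0.05. Stars stand at AOC in all 3 leaf columns and at OsOPR4 in 9311 and PA64s leaf, and no TIFY gene carries a star.

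Leaf and root responses to fertiliser, averaged over the 3 cultivars, differed for 5 of the 39 genes (12.8%, background 13.3%). AOC responded more in leaf than in root by 0.57 ± 0.12 log2 units (adjusted p = 0.0013). OsOPR5, lower in leaf and higher in root with fertiliser by its means in each cultivar, differed by -1.44 ± 0.30 (adjusted p = 0.00146), and its second probe set by -1.59. LOX3 differed by -0.48 ± 0.15 (adjusted p = 0.0286), a call lost without 9311 root deficient replicate 2 (adjusted p = 0.0528). TIFY6A differed by 0.37 ± 0.11 (adjusted p = 0.0286), with leaf differences of 0.44, 0.39 and 0.20 and root differences of 0.07, -0.12 and -0.02 in 9311, LYP9 and PA64s. That call was lost under median centring (0.31, adjusted p = 0.0913) and without 9311 root deficient replicate 2, 9311 leaf deficient replicate 1 or PA64s root deficient replicate 1 (adjusted p up to 0.0532). TIFY11E differed by 1.91 ± 0.62 (adjusted p = 0.0383), a call that was lost on leaving out any 1 of 14 of the 36 arrays (1.63 to 2.10, adjusted p up to 0.0687), 9311 root sufficient replicate 3 and PA64s leaf deficient replicate 2 among them.

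Between the parents, averaged over the nutrient states, TIFY2A and TIFY5 differed in leaf and in root, in opposite directions. In leaf 4 of the 39 genes were called (background 9.11%), AOC and TIFY2A higher in 9311 and LOX9 and TIFY5 higher in PA64s. In root 7 were called (background 9.93%), OsOPR12 and TIFY2A higher in 9311 and LOX3, LOX8, TIFY2B, TIFY5 and TIFY6A higher in PA64s. The median 9311 minus PA64s difference of the 39 genes was -0.00 in leaf and 0.02 in root, against 0.04 and 0.06 over all probe sets. A cultivar's own sequence under a probe and a difference in its RNA cannot be told apart on this array.

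**Figure D4:**
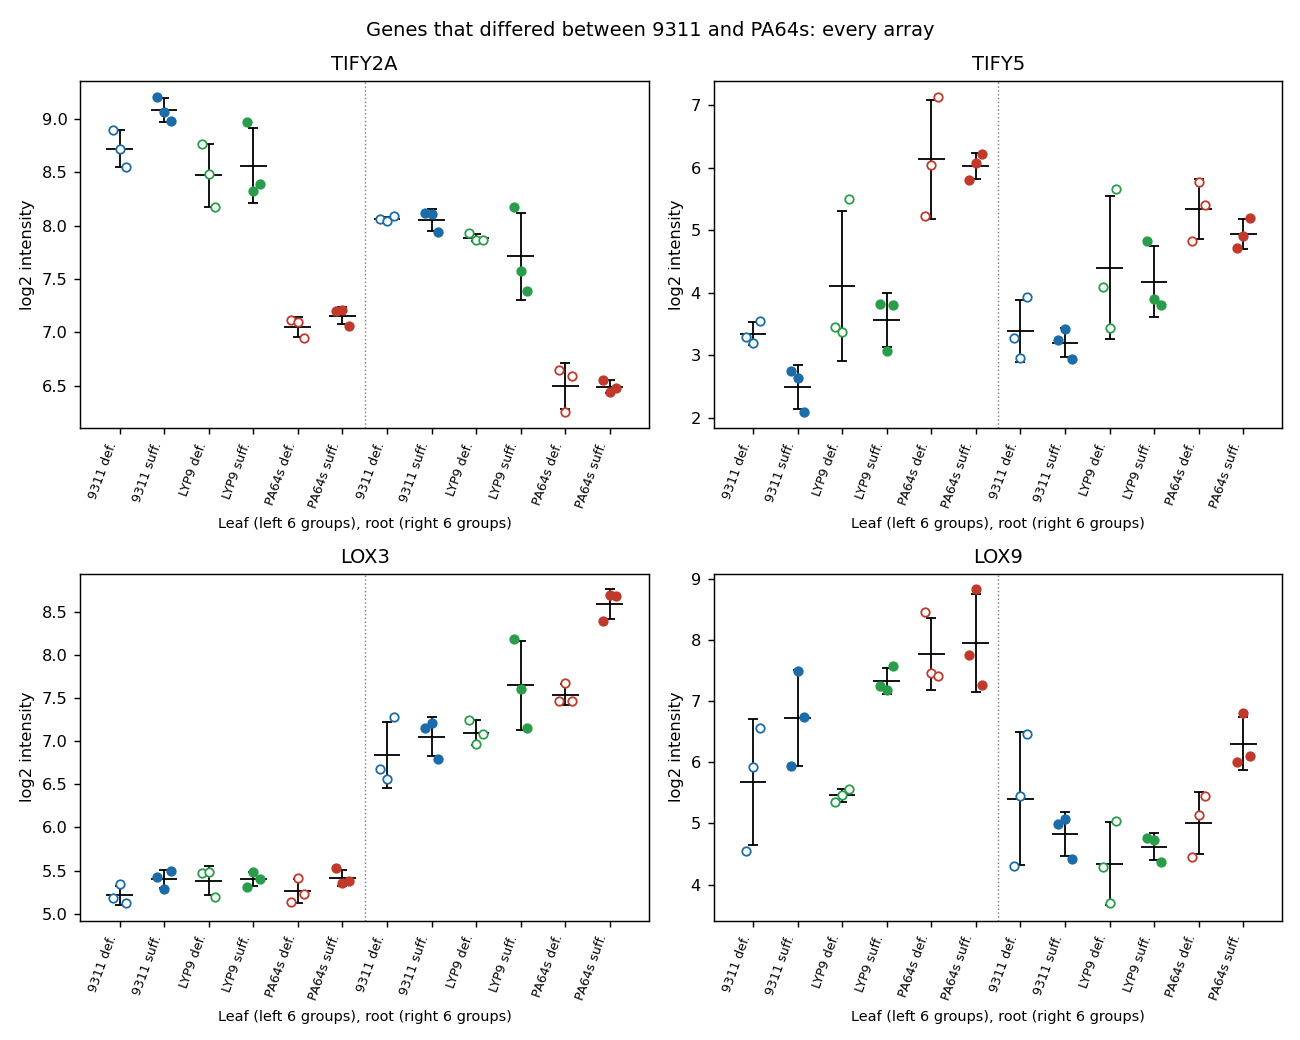
Log2 intensity (vertical axis) of TIFY2A, TIFY5, LOX3 and LOX9 on every array (points) in the 12 groups, with the mean and SD of each group (bars, n = 3). Open points are deficient and filled points sufficient arrays. For TIFY2A the PA64s arrays lie below all 9311 and LYP9 arrays of the same tissue.

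TIFY2A (LOC4328300), a family member that also carries GATA-type aliases, read 8.90, 8.72 and 8.55 in deficient and 9.21, 9.06 and 8.98 in sufficient 9311 leaf. In PA64s leaf it read 7.12, 7.09 and 6.95 in the deficient and 7.20, 7.21 and 7.06 in the sufficient state. It was 3.47-fold higher in 9311 leaf (1.80 ± 0.12, adjusted p = 8.03e-09) and 2.96-fold higher in 9311 root (1.56 ± 0.11, adjusted p = 2.32e-08). No PA64s array reached a 9311 array of its tissue. On the log2 scale LYP9 lay between the parents' means in each tissue and state, nearer to 9311. In sufficient leaf it was 0.52 ± 0.17 below 9311 and 1.40 ± 0.17 above PA64s. In deficient root it was 0.18 ± 0.16 below 9311 and 1.39 ± 0.16 above PA64s. The mean of the parents used here is that of their log2 values. Where the parents differ, this lies below the log2 of their mean intensity. Against the mean of the parents TIFY2A was higher in LYP9 by 0.44 in sufficient leaf (adjusted p = 0.673), 0.58 in deficient leaf (adjusted p = 0.141), 0.44 in sufficient root (adjusted p = 0.541) and 0.61 in deficient root (adjusted p = 0.102), none of which passed the test. The deficient leaf difference was called with replicate numbers as a block (adjusted p = 0.0165) and where all 36 arrays shared a fit (adjusted p = 0.0481).

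TIFY5 (LOC4342421), a JAZ gene, was dim in 9311 leaf and in the root groups of every cultivar (root group means of 3.21 to 5.34). It read 3.30, 3.19 and 3.55 in deficient and 2.75, 2.64 and 2.09 in sufficient 9311 leaf. In PA64s leaf it read 5.23, 6.04 and 7.14 in the deficient and 5.81, 6.08 and 6.22 in the sufficient state. The 9311 minus PA64s difference was -3.16 ± 0.34 log2 units in leaf (adjusted p = 3.64e-06) and -1.84 ± 0.31 in root (adjusted p = 0.000593). Every PA64s array lay above every 9311 array of the same tissue. Its probe set is of the kind that can bind several related transcripts.

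LOX9 was lower in 9311 leaf, by a difference of -1.66 ± 0.34 (adjusted p = 0.00341), and its other probe sets gave -1.07 (adjusted p = 0.0133) and -0.18 (adjusted p = 0.639). In root LOX9 differed by -0.54 (adjusted p = 0.283), while its neighbour LOX8 differed by -0.84 ± 0.22 (adjusted p = 0.0226). The LOX8 call was lost on leaving out any 1 of 6 of the 12 arrays, 9311 root sufficient replicate 1 among them, with an adjusted p of up to 0.0665, and where all 36 arrays shared a fit (adjusted p = 0.166). LOX3 was 2.17-fold lower in 9311 root (-1.12 ± 0.16, adjusted p = 0.000101), with 6.68, 6.56 and 7.28 in deficient 9311 against 7.47, 7.68 and 7.47 in deficient PA64s.

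The smaller differences were AOC in leaf, 1.25-fold higher in 9311 (0.32 ± 0.08, adjusted p = 0.0231), OsOPR12 in root (0.34 ± 0.07, adjusted p = 0.0125), TIFY2B in root (-0.27 ± 0.08, adjusted p = 0.0343) and TIFY6A in root (-0.41 ± 0.10, adjusted p = 0.0154). The AOC call was lost without 9311 leaf sufficient replicate 3, 9311 leaf deficient replicate 2, PA64s leaf sufficient replicate 2 or PA64s leaf deficient replicate 3 (0.26 to 0.36, adjusted p up to 0.0699). That of TIFY2B was lost without any 1 of 7 of the 12 arrays, PA64s root deficient replicate 1 among them (adjusted p up to 0.0828), and that of OsOPR12 where all 36 arrays shared a fit (adjusted p = 0.0539). OsOPR5 differed by -0.02 (adjusted p = 0.949) in leaf and by -0.12 (adjusted p = 0.84) in root.

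The parents' nutrient responses were compared directly as well. No gene was called in leaf (background 0.014% of probe sets) or in root (0.00525%) in limma's test. Unadjusted p was under 0.05 for AOC, LOX8 and TIFY10B in leaf and for LOX3, LOX8, LOX9, AOS3 and OsOPR12 in root. The larger AOC rise in PA64s than in 9311 leaf, and the LOX3 rise in PA64s root, are therefore not shown to differ between the parents.

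The series set out to find expression differences behind hybrid vigour in early growth. For this, LYP9 was compared with the mean of its parents' log2 values in each tissue and state. With limma 1 of the 39 genes was called in these 4 comparisons. None of the 39 genes in sufficient leaf (background 0.514%), deficient leaf (0.598%) or deficient root (0.358%) passed the test against the mean of the parents. In each of these comparisons 3 genes had an unadjusted p under 0.05, OsOPR5, OsOPR7 and TIFY2A in sufficient leaf, LOX9, OsOPR5 and TIFY2A in deficient leaf, and LOX9, AOS2 and TIFY2A in deficient root. In sufficient root 1 gene, LOX8, was called (background 0.509%). Over all probe sets, calls higher and lower in LYP9 numbered 287 and 7 in sufficient leaf and 306 and 36 in deficient leaf. In root they numbered 280 and 11 in the sufficient and 201 and 4 in the deficient state. The part of the log2 mean in this split was not tested. The median deviation of the 39 genes was 0.03 in sufficient leaf, -0.03 in deficient leaf, -0.17 in sufficient root and -0.06 in deficient root, against 0.02, 0.02, 0.00 and 0.00 over all probe sets.

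LOX8 in sufficient root read 3.36, 3.65 and 3.65 in LYP9, 3.80, 4.13 and 3.93 in 9311 and 4.92, 6.35 and 6.01 in PA64s. LYP9 arrays were the lowest of the 3 cultivars, all of them dim, and the mean of the parents was carried up by PA64s. The deviation was -1.31 ± 0.27 (adjusted p = 0.0404). The call was lost without any 1 of the 9 arrays but PA64s root sufficient replicate 1 (adjusted p up to 0.303), under median centring (adjusted p = 0.0613), with 16 added to each value before log2 (-0.78, adjusted p = 0.0859), and where all 36 arrays shared a fit (adjusted p = 0.712).

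AOC in LYP9 deviated from the parents' mean by 0.17 in sufficient and 0.15 in deficient leaf (adjusted p = 1 for each). OsOPR5 deviated by -0.60 ± 0.14 in deficient leaf, which did not pass the test (adjusted p = 0.0678), at 5.57, 5.79 and 5.90 in LYP9 against 6.13, 6.50 and 6.12 in 9311 and 6.81, 6.33 and 6.23 in PA64s. Under median centring it passed (adjusted p = 0.0483), as it did with a trended and robust variance prior (adjusted p = 0.0399), with quantile normalization (adjusted p = 0.0399) and among the upper 60% of probe sets alone (adjusted p = 0.0487). LYP9 arrays of OsOPR5 lay below all parental arrays of that state.

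None of the 39 genes passed the test against each parent in the same direction, which would put LYP9 outside the parental range, in sufficient leaf (background 0.00525%), deficient leaf (0.00874%), sufficient root (0.00175%) or deficient root (0%) with limma. By unadjusted p under 0.05 the counts were 0, 1, 0 and 0. The deviation from the parents' mean differed between nutrient states for no gene in leaf (0% of probe sets) or root (0%), and 1 gene in each had an unadjusted p under 0.05, LOX9 in leaf and LOX8 in root.

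The 5 TIFY11 genes, repressor genes that lie in clusters, with TIFY11A, TIFY11C and TIFY11B next to each other and TIFY11E close to TIFY11D elsewhere, varied widely between arrays of a group. Their pooled within-group SD was 1.01 log2 units for TIFY11E, 0.935 for TIFY11C, 0.752 for TIFY11B, 0.744 for TIFY11D and 0.714 for TIFY11A, at or above the 99.1th percentile of all probe sets. OsOPR1 (0.732) and LOX8 (0.714) varied as widely as TIFY11A, and LOX9 and TIFY5 lay at the 98.5th percentile. In deficient PA64s leaf TIFY11C read 9.39, 6.20 and 7.37, TIFY11D read 9.90, 7.37 and 8.18, and TIFY11A read 7.30, 4.60 and 5.55. Replicate 1 was the highest and replicate 2 the lowest for each of these genes. TIFY11B and TIFY11D had their highest value on the same array in 12 of the 12 groups, and TIFY11A to TIFY11D all did in 10. The 10 TIFY11 pairs shared their highest array in 6 to 12 groups (median 10), where the median over all 741 pairs of the 39 genes was 4. Of these 741 pairs, 15 shared it in 10 or more groups, 6 of them within TIFY11. The other 9 were LOX8 with LOX9, LOX8 with TIFY11B, TIFY11C and TIFY11D, LOX9 with TIFY11B and TIFY11D, TIFY11A with TIFY9, COI1B with COI2, and OsOPR8 with TIFY5.

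**Figure D5:**
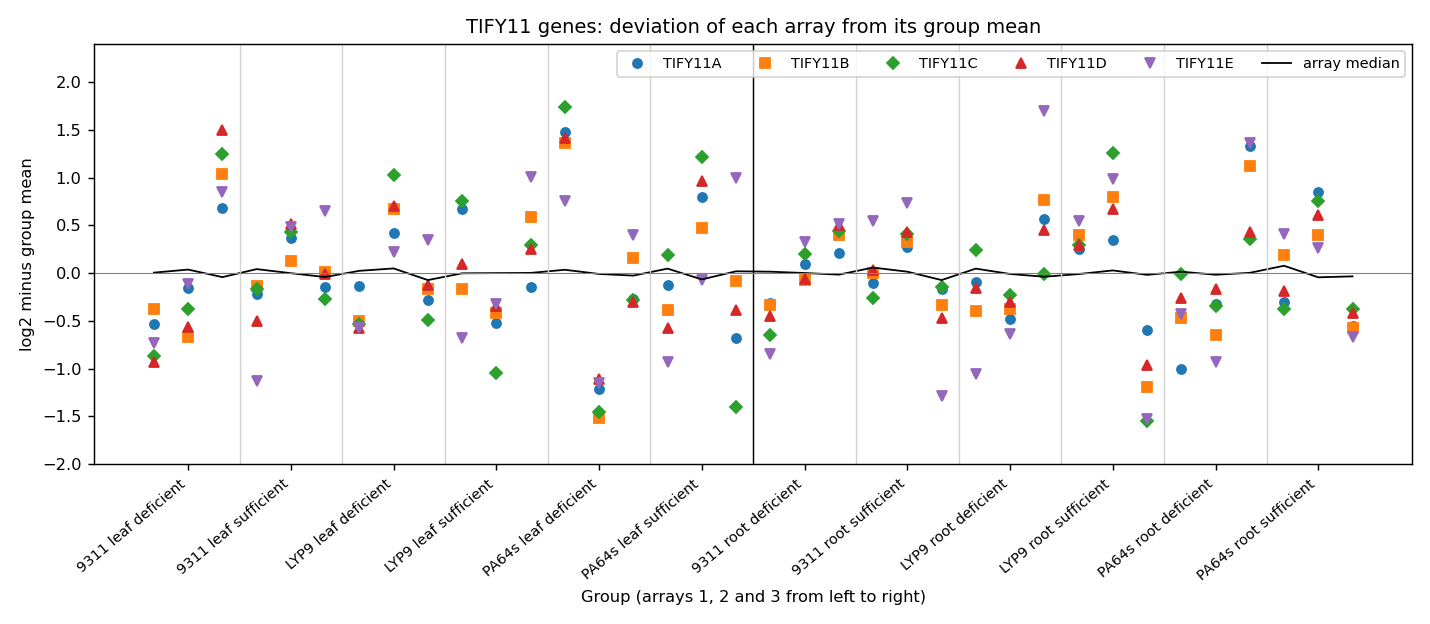
Deviation in log2 units (vertical axis) of the 5 TIFY11 genes from their group mean on each of the 36 arrays, by group (horizontal axis), with the deviation of the array median as a black line. TIFY11B and TIFY11D peak on the same array in all 12 groups, and every gene but TIFY11E has its widest range in deficient PA64s leaf.

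The medians of the arrays deviated from their group means by -0.073 to 0.077. The probe sets of related TIFY11 genes can bind each other's RNA, and the part of this in the shared pattern was not tested. That used for TIFY11B is of the kind that can bind several related transcripts. The shared pattern was not computed with the second probe set of TIFY11B. In the main fit no TIFY11 gene was called in a nutrient, parental or mid-parent comparison within a tissue. TIFY11E alone of them was called where the leaf and root responses were compared. In 9311 leaf TIFY11E read 4.37, 4.99 and 5.95 without and 5.72, 7.33 and 7.50 with fertiliser, a difference of 1.75 ± 0.62 that did not pass the test (adjusted p = 0.102). With replicate numbers as a block this difference was called (adjusted p = 0.0223).

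A wider list, matched by symbol or alias to names from the jasmonate pathway, held 17 measured genes. A match by name, such as that of DAD-1 or ASP1, does not show that the gene acts in the pathway. In leaf with fertiliser 2 of them rose and 2 fell in 9311, 3 rose and 1 fell in LYP9, and 1 rose and 2 fell in PA64s, where 7.29%, 5.25% and 4.66% of all probe sets were called. In root none of the 17 was called by limma in any cultivar, beside 2.79%, 1.67% and 1.85% of all probe sets. In each root comparison 2 of them had an unadjusted p under 0.05. ILL5, of the amidohydrolase family whose members cleave hormone conjugates, rose in leaf of all 3 cultivars, by 0.73 ± 0.11 in 9311 (adjusted p = 0.00087), 0.93 ± 0.11 in LYP9 (adjusted p = 0.000194) and 0.58 ± 0.11 in PA64s (adjusted p = 0.00622). ILL2 rose in 9311 (0.64 ± 0.16, adjusted p = 0.0244) and LYP9 (0.74 ± 0.16, adjusted p = 0.0161), and ILL6 fell in LYP9 (-0.54 ± 0.11, adjusted p = 0.013). MFP, a multifunctional protein of the fatty acid shortening that completes jasmonate, fell 1.29-fold in 9311 (-0.36 ± 0.10, adjusted p = 0.0343) and 1.46-fold in PA64s (-0.55 ± 0.10, adjusted p = 0.00486). OsTPR2, of the corepressor family that JAZ proteins recruit, fell in 9311 (-0.63 ± 0.17, adjusted p = 0.0363) and PA64s (-0.63 ± 0.17, adjusted p = 0.0483). PBZ1, a pathogenesis-related gene of the PR10 family, rose 3.75-fold in LYP9 leaf (1.91 ± 0.35, adjusted p = 0.00497).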

How the data were processed

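RNA was hybridised to Affymetrix rice arrays, 36 in 12 groups taken from the sample titles. The authors deposited linear intensity values with a floor of 1, as the values themselves show. Their scaling is not stated in labels or headers, although RMA and affy appear, with no role, in the submitters' processing notes. Of 57381 probe sets, 187 controls were left out. The rest were taken to log2 with no further scaling or filter. Of the 57194, 22436 list 1 gene in the platform annotation, 95 list several and 34663 list none; symbols and gene order come from a RefSeq gene table, used for names and neighbours only.

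Group means were fitted per tissue (18 arrays), and over 36 arrays for leaf against root, with limma 3.58.1 in R 4.3.3 (lmFit, contrasts.fit, eBayes). P-values were adjusted by Benjamini-Hochberg over all probe sets, ± values are standard errors, and the fit was tested on simulated data. Named are all genes called in a comparison, AOC, OsOPR5 and the brightest gene of each role. The genes, lists and tests were chosen with earlier results of these data known. Alternatives were the upper 60% of probe sets, quantile normalization, median centring, 16 added before log2, a trended and robust prior, a replicate block, the mean of a gene's probe sets, 36 arrays in 1 fit, and leaving out each array.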

Additional observations from a re-analysis of the deposited data

Results flagged for a closer look

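Fertiliser responses of 5 genes differed between leaf and root in a direct test of that difference (limma, 36 arrays, mean over 3 cultivars). The leaf minus root difference of the responses was 0.57 log2 units for AOC, -1.44 for OsOPR5, -0.48 for LOX3, 0.37 for TIFY6A and 1.91 for TIFY11E. The AOC and OsOPR5 calls held without each array in turn, and those of LOX3, TIFY6A and TIFY11E did not. The share of genes concerned, 12.8%, was near the 13.3% of all probe sets.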

How the results depend on the processing

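Of the 39 genes, the count called moved with the setting as follows, with smaller moves left out. Left out are, for example, those with 36 arrays in 1 fit in LYP9 leaf, PA64s leaf, PA64s root and between the parents in leaf. Between the parents in leaf that fit added LOX8 (adjusted p = 0.0132) and OsOPR12 (adjusted p = 0.0375). In 9311 leaf the 2 calls became 1 under median centring and under the trended and robust prior, and 4 where all 36 arrays shared a fit. In LYP9 leaf 2 became 1 after quantile normalization and with the mean of a gene's probe sets, and in PA64s leaf 3 became 5 after quantile normalization. Against the parents' mean in deficient leaf, 0 became 1 among the upper 60% of probe sets, after quantile normalization, median centring, the trended and robust prior, or 36 arrays in 1 fit. In sufficient root 1 became 0 among the upper 60%, under median centring, with 16 added, or with 36 arrays in 1 fit. Among the upper 60% the calls in 9311 root went from 2 to 1 (also with 36 arrays in 1 fit), in PA64s root from 2 to 1 and between the parents in root from 7 to 4, with fewer dim genes tested. The cause of the other shifts was not tested.

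Without 1 array at a time the counts ranged from 1 to 3 in 9311 leaf, 1 to 2 in LYP9 leaf, 2 to 3 in PA64s leaf, 0 to 3 in 9311 root, 0 to 1 in LYP9 root and 1 to 2 in PA64s root. They ranged from 3 to 5 between parents in leaf, 5 to 8 in root, 0 to 1 against the parents' mean in deficient leaf and in sufficient root, 30 to 31 for leaf against root and 2 to 6 for the difference of their responses, and stayed at 0 in the comparisons with no call that are not named here. AOC, higher in leaf than root, read -0.03 after quantile normalization and was not called. In the fit with replicate numbers as a block, counts were 4 in 9311 leaf, 5 in PA64s leaf, 1 in LYP9 root and 1 in deficient leaf against the parents' mean. The genes it added were TIFY11E (adjusted p = 0.0223) and TIFY6A in 9311 leaf, OsOPR4 in LYP9 leaf (adjusted p = 0.0456), JAR1 and TIFY10B in PA64s leaf, JAR1 in LYP9 root, OsOPR1 and JAR1 between the parents in leaf, TIFY2A in deficient leaf against the parents' mean (adjusted p = 0.0165), OsOPR4, OsOPR6 and TIFY6B between leaf and root, and OsOPR1 in the difference of leaf and root responses. Over all probe sets the block raised leaf calls from 4170 to 6029 in 9311, 3005 to 4446 in LYP9 and 2667 to 4154 in PA64s. Arrays of a number correlated over 0.1 in 8 of 18 pairs (-0.145 to 0.368), in leaf for each pair of replicates 1 and 3 (0.199 to 0.352) and none of replicate 2 (-0.145 to -0.001), and 9 of 18 arrays correlated best with their own number. In leaf, replicates 1 and 3 thus shared a pattern across nutrient states and replicate 2 did not. The main fit left the numbers out, and what arrays of a number share was not tested. In the 6 leaf groups OsOPR1 lay above its group mean in each replicate 1 and below it in each replicate 3, and TIFY11E lay above it in each replicate 3. In the 6 root groups OsOPR1 again lay below its mean in each replicate 3, and above it in 4 of the replicates 1. TIFY11E in root lay above its mean in 3 of the 6 replicates 3. Scaling moved the split of all calls: 65% were higher in 9311 leaf, 50.4% after quantile normalization and 52.2% after median centring. The corresponding shares were 69.6%, 48.1% and 52.7% in LYP9 leaf, 61.3%, 46.2% and 44.3% in PA64s leaf, and 64.3%, 51.7% and 51% for leaf minus root responses. In 9311 root 55.2% became 44.8% under median centring. Dim signal limits LOX8, TIFY5 and OsOPR12.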
